A study of Mus musculus with 192 samples.

Results

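The genes described here are 9 members of the LIF and Stat3 pathway and of the Pim kinase family: Lifr, Il6st, Jak1, Stat3, Socs3, Tcl1, Pim1, Pim2 and Pim3. They were taken by feature name from a table of 24264 genes, and 9 of 9 were found. Each was followed over the 96 chambers (wells) of 1 microfluidic chip, which captured single R1 cells. R1 is a line of mouse embryonic stem (ES) cells. It had been grown to confluency in ES1 medium on irradiated fibroblast feeders, and before freezing the feeders were left to settle out and dying cells were removed with beads. No genotype other than that of the line and no treatment distinguished the wells, and the composition of ES1 medium is not given in the sources used here. Because the cells came from 1 culture, they form 1 sample. The wells are not replicates of a condition, all spreads are standard deviations over wells (n = 45 low-RNA and 51 RNA-rich wells unless another number is given). No test with a p-value was made.

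Wells fell into ranges of RNA content that are described apart. The 45 low-RNA wells held 8774 to 35543 gene molecules, with a median of 22234, and the 51 RNA-rich wells held 51390 to 573648, with a median of 98750. No well lay between 40000 and 50000. Levels are given as molecules per 10000 gene molecules of the well. At the median total, 1 molecule was a level of 0.450 in low-RNA wells and 0.101 in RNA-rich wells, so a level of 0 says less about a low-RNA well. Molecules were counted from 5' ends, so a molecule counts once whatever the length of its transcript. Fewer molecules captured and less RNA per cell cannot be told apart by these levels, and whether each chamber held an intact cell was not known here. Mitochondrially encoded RNA took a median of 29.1% of gene molecules in low-RNA wells and 10.4% in RNA-rich wells. Wells C03 and H03 held far more spike-in molecules than the rest (36465 and 55740, against a median of 7992 in RNA-rich wells), and well H12 far fewer (926, against a median of 6098 in low-RNA wells). Without these 3 wells the counts of members past the limits on ratio and on technical noise given below were the same.

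The wells held RNA of ES cell markers throughout. All 13 ES cell markers were detected, with a median summed level of 54.1 (38.9 to 141) in low-RNA wells and 93.99 (19.1 to 228) in RNA-rich wells. Of 13 feeder fibroblast markers, 11 were detected in low-RNA wells, where the collagen gene Col3a1 and Thy1 were at 0, and 13 in RNA-rich wells. Their median summed level was 12.03 (6.07 to 19.4) in low-RNA wells and 8.94 (4.92 to 189) in RNA-rich wells. The highest was in well D02, where the ES cell sum was 23.5. Well G12 had a feeder sum of 76.5 and the lowest ES cell sum, 19.1. Of 7 trophectoderm markers, 6 were detected, with Elf5 at 0, and their median sum was 6.06 (0.612 to 15.4) in low-RNA wells and 3.33 (1.74 to 73.3) in RNA-rich wells. The primitive endoderm marker Sox17 was at 0 in both ranges and Gata4 in low-RNA wells. Of 6 primitive endoderm markers, 4 were detected in low-RNA wells and 5 in RNA-rich wells. A summed level of the keratins Krt8 and Krt18 of at least 15 was found in 0 low-RNA wells and in 9 RNA-rich wells, called keratin-high below.

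LIF, leukaemia inhibitory factor, is a cytokine that holds mouse ES cells in self-renewal. It joins its receptor Lifr with the shared signalling chain gp130, the product of Il6st, and the Janus kinases bound to that pair phosphorylate the transcription factor Stat3. Stat3 enters the nucleus and activates targets that include Socs3, a feedback inhibitor that binds gp130 and the kinases. The Pim genes encode serine/threonine kinases with no known regulatory subunit, so that their activity follows how much of each is made. Pim1 and Pim3 are reported Stat3 targets in mouse ES cells. Tcl1 is a coactivator of the kinase Akt that is expressed in naive ES cells.

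The promoter of Socs3 is printed because, among the 9 genes, its window held the palindrome that activated STAT dimers are known to bind. RefSeq gave 11 promoter windows for the 9 genes, each from 250 bases before to 50 after a transcription start (GRCm38.p6). The Socs3 window is chr11:117969317-117969616, minus strand, read 5′ to 3′, with the match to TTCNNNGAA in capitals:
Socs3: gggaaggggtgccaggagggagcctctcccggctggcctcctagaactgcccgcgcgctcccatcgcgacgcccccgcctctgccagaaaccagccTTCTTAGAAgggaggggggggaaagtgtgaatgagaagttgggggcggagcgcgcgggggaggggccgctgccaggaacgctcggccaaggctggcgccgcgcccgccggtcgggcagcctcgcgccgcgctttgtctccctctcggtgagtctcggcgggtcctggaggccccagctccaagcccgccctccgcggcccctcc
The capitals lie 154 to 146 bases before the RefSeq start at position 117969366. GENCODE M21 places transcript starts of Socs3 at 117969186, 117969451 and 117970047, so the distance depends on the start taken. The motif reads the same on both strands, was in 1 of 11 windows of these genes, and was in 8.30% of 32851 mouse promoter windows of this length. TATAAA, the core promoter box, searched on both strands and not overlapping that motif, was in 0 of 11 windows and in 13.6% of all. A match is a string of letters and not a measured binding site.

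The receptor genes were sparse in both ranges. Lifr, the LIF-binding chain (chromosome 15, 7090614 to 7197489, plus strand, GRCm38), had 15 molecules in 7 of 45 low-RNA wells and 58 molecules in 21 of 51 RNA-rich wells. Its level had a lowest value of 0, a median of 0 and a highest value of 2.90 in low-RNA wells, against 0, 0 and 0.792 in RNA-rich wells. The ranges overlapped at 0, and 1 low-RNA well, H01, held 9 of the 15 molecules. The mean level was 0.128 ± 0.454 in low-RNA wells and 0.098 ± 0.176 in RNA-rich wells, a ratio of 1.31. Without the highest well of each range the ratio was 0.776, so its direction rested on well H01. From summed counts the ratio was 1.49 with an exact 95% interval of 0.786 to 2.67, which, like all such intervals here, covers counting error only.

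Il6st, the gene of gp130 (chromosome 13, 112464070 to 112510086, plus strand), had 18 molecules in 15 low-RNA wells and 45 molecules in 19 RNA-rich wells. Its lowest, median and highest levels were 0, 0 and 1.14 in low-RNA wells, against 0, 0 and 0.757 in RNA-rich wells. Most wells of both ranges were at 0. The mean was 0.179 ± 0.304 in low-RNA wells and 0.084 ± 0.170 in RNA-rich wells, a ratio of 2.13, and from summed counts 2.31 (1.26 to 4.07). Its mean in RNA-rich wells lay under the minimum of 1 molecule asked of genes in the counts below. It was 0.882 molecules as counted, used for the ratios, and 0.960 scaled molecules, used for technical noise. Per spike-in molecule in place of gene molecules the ratio was 0.886, so the direction for Il6st turned with the denominator. The median over all genes also moved, from 0.752 to 0.245, and Il6st lay above that median both times.

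Jak1, the Janus kinase that binds gp130 (chromosome 4, 101152367 to 101265282, minus strand), was detected in 21 low-RNA wells and 44 RNA-rich wells. Its lowest, median and highest levels were 0, 0 and 2.28 in low-RNA wells, against 0, 0.379 and 1.58 in RNA-rich wells. The ranges overlapped along their length, and the highest RNA-rich well was G09. The mean was 0.348 ± 0.498 in low-RNA wells and 0.426 ± 0.401 in RNA-rich wells, a ratio of 0.817, with a summed ratio of 0.851 (0.586 to 1.21). The annotation places Gm12785 on the same strand and Raver2 and Gm24468 on the other within Jak1, and reads of overlapping genes could not be told apart here because no source states how strand was used in counting.

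Stat3, the transcription factor of the pathway (chromosome 11, 100885098 to 100939540, minus strand, overlapped on the other strand by Stat5a), had 28 molecules in low-RNA wells and 253 in RNA-rich wells. It was detected in 17 and 43 wells of those ranges. Lowest, median and highest levels were 0, 0 and 1.70 in low-RNA wells, against 0, 0.314 and 2.19 in RNA-rich wells. The highest RNA-rich well, C06, was also the highest for Pim3. The mean level was 0.252 ± 0.391 in low-RNA wells and 0.451 ± 0.453 in RNA-rich wells, a ratio of 0.559, and the summed ratio was 0.639 (0.416 to 0.946).

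Socs3, the feedback inhibitor whose promoter is shown above (gene at chromosome 11, 117966079 to 117970047, minus strand), had 11 molecules in 8 low-RNA wells and 120 molecules in 29 RNA-rich wells. Its lowest, median and highest levels were 0, 0 and 1.14 in low-RNA wells, against 0, 0.091 and 0.907 in RNA-rich wells. The ranges overlapped, with C09 the highest RNA-rich well. Its mean level was 0.111 ± 0.268 in low-RNA wells and 0.205 ± 0.253 in RNA-rich wells, a ratio of 0.542, and the summed ratio was 0.529 (0.257 to 0.982).

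Tcl1 (chromosome 12, 105216750 to 105222793, minus strand) had the lowest ratio of the 9 genes. It had 7 molecules in 6 low-RNA wells and 198 molecules in 34 RNA-rich wells. Lowest, median and highest levels were 0, 0 and 1.01 in low-RNA wells, against 0, 0.113 and 3.50 in RNA-rich wells. A few RNA-rich wells stood above all low-RNA wells: H04 had 34 molecules (level 3.50), C11 22 (2.23), A05 18 (1.97) and C01 20 (1.72). The 5 wells with most molecules held 56.1% of the Tcl1 molecules of the RNA-rich wells, while 17 RNA-rich wells had 0. The mean was 0.092 ± 0.250 in low-RNA wells and 0.339 ± 0.664 in RNA-rich wells, a ratio of 0.270, with a summed ratio of 0.204 (0.081 to 0.429). Its relatives Tcl1b1 to Tcl1b5 were at 0 in every well.

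Pim1 (chromosome 17, 29490753 to 29496112, plus strand, with Gm26885 on the other strand) was detected in 31 low-RNA wells and 48 RNA-rich wells. Lowest, median and highest levels were 0, 0.471 and 1.55 in low-RNA wells, against 0, 0.547 and 2.70 in RNA-rich wells. The ranges overlapped, with E12 the highest RNA-rich well. The mean was 0.552 ± 0.491 in low-RNA wells and 0.637 ± 0.559 in RNA-rich wells, a ratio of 0.867, and the summed ratio was 0.873 (0.645 to 1.16). Of its molecules 52.5% came from uniquely matched reads, so its counts could include reads of similar sequences elsewhere.

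Pim2 (chromosome X, 7878262 to 7883432, plus strand) was detected in 38 low-RNA wells and in all 51 RNA-rich wells, with 103 and 829 molecules in those ranges. Lowest, median and highest levels were 0, 0.941 and 3.42 in low-RNA wells, against 0.103, 0.658 and 6.58 in RNA-rich wells. Its RNA-rich wells were spread unevenly: 34 lay below 1, 5 from 1 to 2, 8 from 2 to 4, and 4 at 4 or more. The highest were D01 with 64 molecules (level 6.58), A07 with 63 (4.91), G09 with 54 (4.28) and G04 with 45 (4.24). In low-RNA wells 17 lay from 1 to 2 and 4 from 2 to 4. The mean was 1.06 ± 0.818 in low-RNA wells and 1.35 ± 1.51 in RNA-rich wells, a ratio of 0.790, whereas the ratio of the medians was 1.43. The direction for Pim2 thus depended on whether its few high wells were given their weight. Unique reads gave 72.6% of its molecules.

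Pim3 (chromosome 15, 88862186 to 88865726, plus strand) was detected in 39 low-RNA wells and in all 51 RNA-rich wells. Lowest, median and highest levels were 0, 0.929 and 2.94 in low-RNA wells, against 0.164, 1.05 and 3.83 in RNA-rich wells. These ranges overlapped along most of their length, with C06, A03 (3.10), D08 (2.77) and H10 (2.42) at the top of the RNA-rich wells. The mean was 0.926 ± 0.618 in low-RNA wells and 1.22 ± 0.765 in RNA-rich wells, a ratio of 0.759, and the summed ratio was 0.793 (0.633 to 0.984).

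**Figure D1:**
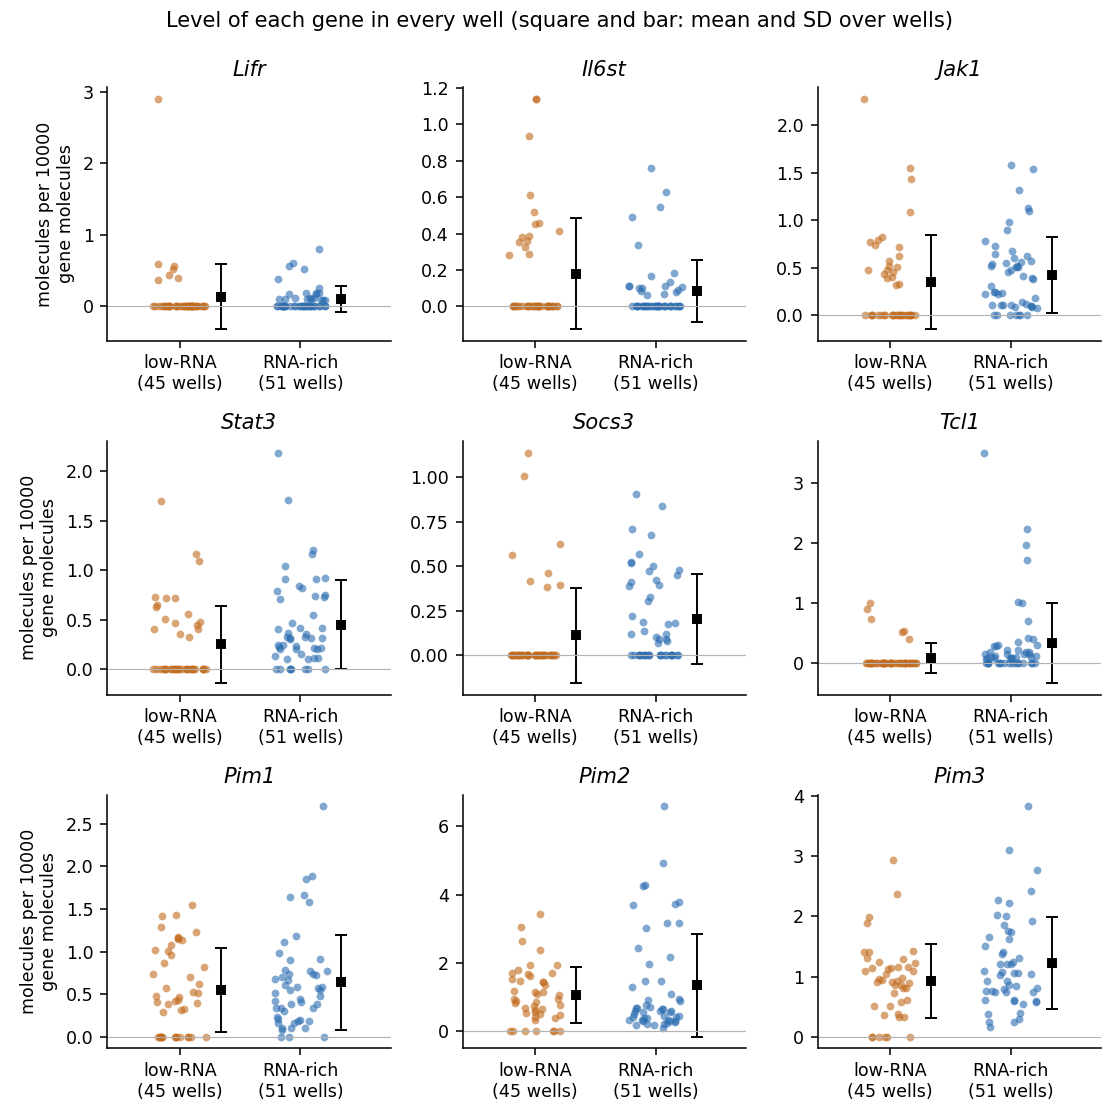
Level of each of the 9 genes per well (molecules per 10000 gene molecules, vertical axes) in 45 low-RNA and 51 RNA-rich wells, with 1 point per well and the mean and SD over wells. Medians of 0 are seen for Lifr and Il6st in both ranges, and the high wells of Pim2 (to 6.58) and Tcl1 (to 3.50) are RNA-rich.

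Set against all genes, the 9 did not stand apart in the comparison of low-RNA with RNA-rich wells. Their summed level was 3.65 ± 1.59 in low-RNA wells and 4.81 ± 1.62 in RNA-rich wells, a ratio of 0.760, while the median ratio over 7765 genes with at least 1 molecule per RNA-rich well was 0.752. Of the 8 members with at least that mean, all but Il6st, 3 (Stat3, Socs3 and Tcl1) were at least 1.5 times lower in low-RNA wells, where 38.5% of all genes were, and 0 were at least 1.5 times higher, where 8.87% of all genes were. The median ratio of the 8 was 0.774. The 3 Pim kinases together had 2.54 ± 1.22 in low-RNA wells and 3.20 ± 1.58 in RNA-rich wells. Since the mitochondrial share also differed between the ranges, the denominator was changed. Without mitochondrially encoded genes the summed ratio was 0.958 and the median over all genes 0.946, and per spike-in molecule they were 0.242 and 0.245. Relative to the median of all genes the members' sum therefore moved little under any of these scalings. Ratios of single genes did cross 1 or the limit of 1.5. Without mitochondrially encoded genes Stat3 had a ratio of 0.706, no longer 1.5 times lower, and Jak1 had 1.05 and Pim1 1.11. Per spike-in molecule Lifr had 0.468. The median over all genes moved the same way, and these genes kept their side of it: Stat3 lay below, and Jak1, Pim1 and Lifr above. What the share of mitochondrial RNA contributes to these ratios was not tested.

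**Figure D2:**
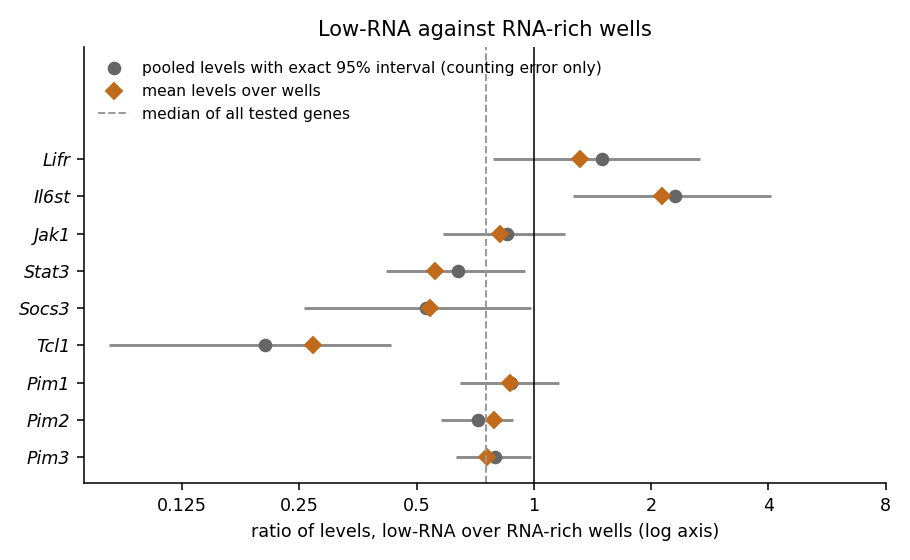
Ratio of levels in low-RNA over RNA-rich wells for each of the 9 genes (log axis), as means over wells (diamonds) and as summed counts with exact 95% intervals for counting error only (circles and lines), beside the median over all tested genes (dashed, 0.752). Tcl1 lies lowest at 0.270, and Il6st, at 2.13, is the gene with too few molecules for the count.

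How often these RNAs were seen moved with depth. Low-RNA wells held molecules of 1 to 7 of the 9 genes (median 4), and RNA-rich wells of 5 to 9 (median 7). All 9 genes were seen together in 0 low-RNA wells and 4 RNA-rich wells, of which 2 were C03 and H03, the wells with outlying spike-in totals. With each well thinned to 10000 gene molecules, which left out 2 low-RNA wells, the expected share of wells with a Pim1 molecule was 40.9% in low-RNA wells and 41.9% in RNA-rich wells, against 68.9% and 94.1% before thinning. For Pim3 the thinned shares were 62.9% in low-RNA wells and 64.9% in RNA-rich wells, and for Jak1 28.4% and 31.3%. Tcl1 kept the widest gap, with 6.76% in low-RNA wells and 20.0% in RNA-rich wells (13.3% and 66.7% before). Socs3 had 8.05% in low-RNA wells and 16.9% in RNA-rich wells, and Stat3 22.1% and 32.1%. Pim2 went the other way, with 62.9% in low-RNA wells and 55.6% in RNA-rich wells, as did Il6st with 14.7% and 7.25%. Lifr had 8.89% in low-RNA wells and 8.44% in RNA-rich wells. No cells known to lack these RNAs were on the chip, so the background from free RNA was not measured.

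Cell-to-cell variation was read against spike-in RNAs, added in equal amount to each chamber. The rule for calling a gene above technical noise asked that its squared coefficient of variation be at least 2 times that of the spike-in fit at its mean, with all wells and again without its highest well, and that its mean be at least 1 molecule. In low-RNA wells 0 of 3 tested members passed, where 0.594% of all genes did. The ratios were 0.312 for Pim1, 0.449 for Pim2 and 0.294 for Pim3, beside a median of 0.473 over 2695 genes. Ratios below 1 mean that most genes varied less than spike-ins of the same mean did.

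Among RNA-rich wells 2 of the 8 members with that mean passed, Pim2 and Tcl1, where 7.0% of all genes did. Pim2 had a mean of 15.4 ± 17.3 scaled molecules and a ratio of 5.75, or 4.81 without well D01. Tcl1 had a mean of 3.88 ± 7.60 and a ratio of 4.55, or 3.07 without well H04, and it would not be counted if a mean of 5 molecules were asked. The other Pim kinases were close to each other and below the limit, with ratios of 1.71 for Pim1 and 1.64 for Pim3. The signalling genes had ratios of 1.59 for Stat3, 1.32 for Jak1, 1.13 for Lifr and 1.10 for Socs3, beside a median of 1.36 over 7768 genes. Il6st had too low a mean to be tested. Pim2 was thus called in RNA-rich wells and not in low-RNA wells, where Tcl1 was too sparse for the rule. At the mean of Pim2 the spike-in fit was 1.32 in low-RNA wells and 0.218 in RNA-rich wells. The limit of 2 times the fit therefore asked for far more variation of Pim2 in low-RNA wells. For that reason the missing call cannot decide whether Pim2 varied less there. The difference between the ranges was not tested.

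**Figure D3:**
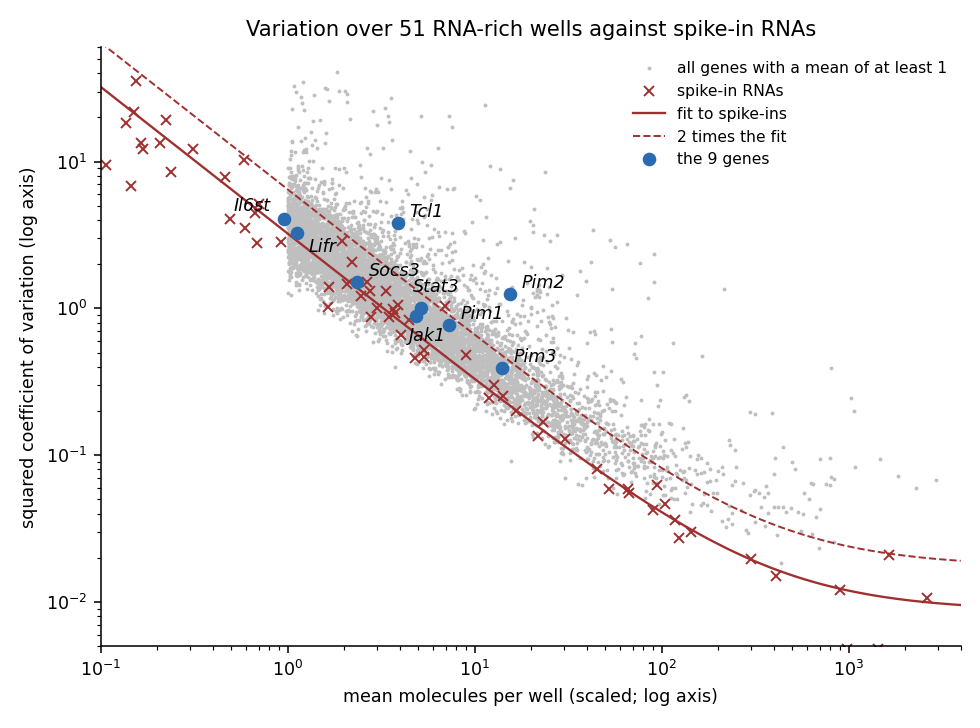
Squared coefficient of variation against mean molecules per RNA-rich well (both axes log) for all genes, the spike-ins and their fit, with the members named. Pim2 and Tcl1 lie 5.75 and 4.55 times above the fit, and the other tested members from 1.10 to 1.71 times.

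Among RNA-rich wells, the high wells of Pim2 and those of Tcl1 and Zfp42 were different wells. Zfp42, also called Rex1, marks the naive state of ES cells, and Dnmt3b, a DNA methyltransferase gene, is known to be higher in primed cells. Zfp42 averaged 6.07 ± 2.43 in low-RNA wells and 7.35 ± 8.004 in RNA-rich wells. In the 12 RNA-rich wells with a Pim2 level of at least 2, Zfp42 ranged from 1.49 to 3.43 with a median of 2.16, against 1.78 to 30.1 with a median of 3.19 in the other 39. All 18 RNA-rich wells with Zfp42 at 5 or more had Pim2 at or below 1.47. This separation was not seen throughout the low-RNA wells, where G01 had Pim2 at 2.63 and Zfp42 at 9.98. The other low-RNA wells with Pim2 of at least 2 had Zfp42 at 4.56 (D12), 1.89 (D10) and 1.84 (H12). The 6 RNA-rich wells with Tcl1 at 1 or more had Zfp42 from 15.6 to 30.1 and Pim2 from 0.103 to 0.688. In the other 45 wells Zfp42 ranged from 1.49 to 28.7, so high Zfp42 was also found without Tcl1. The limits of 1, 2 and 5 were set after the values were seen, and the wells chosen by them are described and not tested. Dnmt3b had a median of 3.05 (0.940 to 8.64) in the 12 wells with high Pim2 and 1.85 (0.291 to 4.57) in the other 39.

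**Figure D4:**
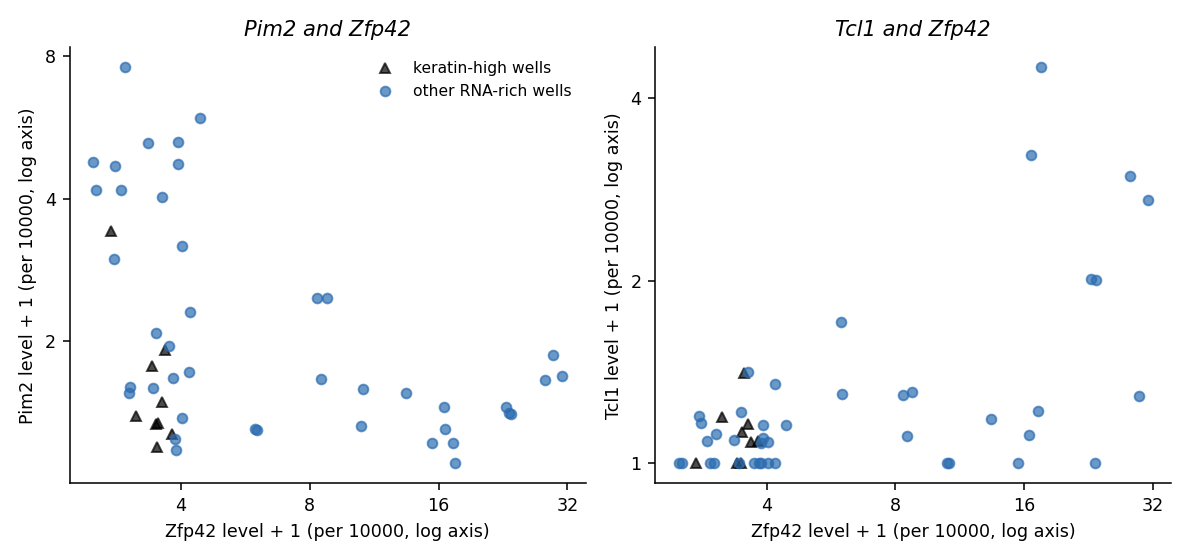
Level plus 1 of Pim2 (left) and Tcl1 (right) against that of Zfp42 in 51 RNA-rich wells (molecules per 10000 gene molecules, log axes), with keratin-high wells as triangles. The wells with Pim2 of at least 2 all have Zfp42 at or below 3.43, and the wells with Tcl1 of at least 1 all have Zfp42 of at least 15.6.

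Rank correlations (Spearman's rho) are given as descriptions of wells that share a chip and a range of depths. In low-RNA wells Pim2 had -0.0733 with Zfp42 and -0.0430 with Dnmt3b, and Tcl1 0.139 with Zfp42, while Tcl1 had 0.417 with Dppa5a and Pim3 0.322 with Zfp42. Low-RNA counts of Tcl1 were 7 molecules in all, so its values there rest on 6 wells. Over the 51 RNA-rich wells Pim2 had -0.407 with Zfp42, and -0.532 without the 9 keratin-high wells. With other genes of the naive state it had -0.365 (Klf2, a Krüppel-like factor) and -0.346 (Tfcp2l1, a reported Stat3 target). Not all ES cell genes went this way: Pim2 had -0.274 with Esrrb, but 0.0661 with Klf4, -0.0183 with Nanog and 0.0433 with Pou5f1. Pim2 had 0.408 with Dnmt3b, against 0.109 with Dnmt3a. It had 0.367 with Tdgf1 and 0.301 with Lefty1, Tdgf1 being a coreceptor of Nodal and Lefty1 a Nodal inhibitor. Tcl1 had 0.444 with Zfp42, 0.442 with Dppa5a, which encodes an RNA-binding protein found in pluripotent cells, and 0.350 with Esrrb, an orphan nuclear receptor. Pim3 had 0.380 with Zfp42 and 0.317 with Klf2. Of Zfp42 molecules 59.3% came from unique reads, and per spike-in molecule the rho of Pim2 with Zfp42 was -0.236.

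The levels of the Pim kinases had rank correlations near 0 or below it over RNA-rich wells. In low-RNA wells the rho was -0.168 between Pim1 and Pim2, 0.0365 between Pim1 and Pim3, and 0.351 between Pim2 and Pim3. Per low-RNA well Pim1 averaged 1.22 molecules, Pim2 2.29 and Pim3 2.11. Among RNA-rich wells the rho was 0.0258 between Pim1 and Pim2, 0.0101 between Pim1 and Pim3, and -0.287 between Pim2 and Pim3. Pim2 and Pim3 thus differed in sign. With so few molecules per low-RNA well, these values cannot decide whether the relation differed between the ranges. The 10 highest RNA-rich wells of Pim2 and the 10 highest of Pim3 shared 0 wells. Stat3 had -0.316 with Pim2 and 0.0181 with Pim3 over RNA-rich wells. Of the 10 highest wells of Stat3 and of Pim3, 5 were shared (B12, C06, C09, D08 and H10). These 2 overlaps are the ends of the range over the 36 pairs, 0 to 5. Stat3 and Socs3 also shared 5, and Jak1 shared 0 with each of Lifr, Il6st, Stat3 and Pim3. The overlaps were not set against the number that unrelated genes would share. Over all 36 pairs of the 9 genes rho ran from -0.347 to 0.364 with a median of 0.0105 in low-RNA wells, and from -0.316 to 0.279 with a median of -0.00438 in RNA-rich wells. With the gene total of the RNA-rich well, the members had a rho between -0.148 (Pim3) and 0.188 (Pim2).

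**Figure D5:**
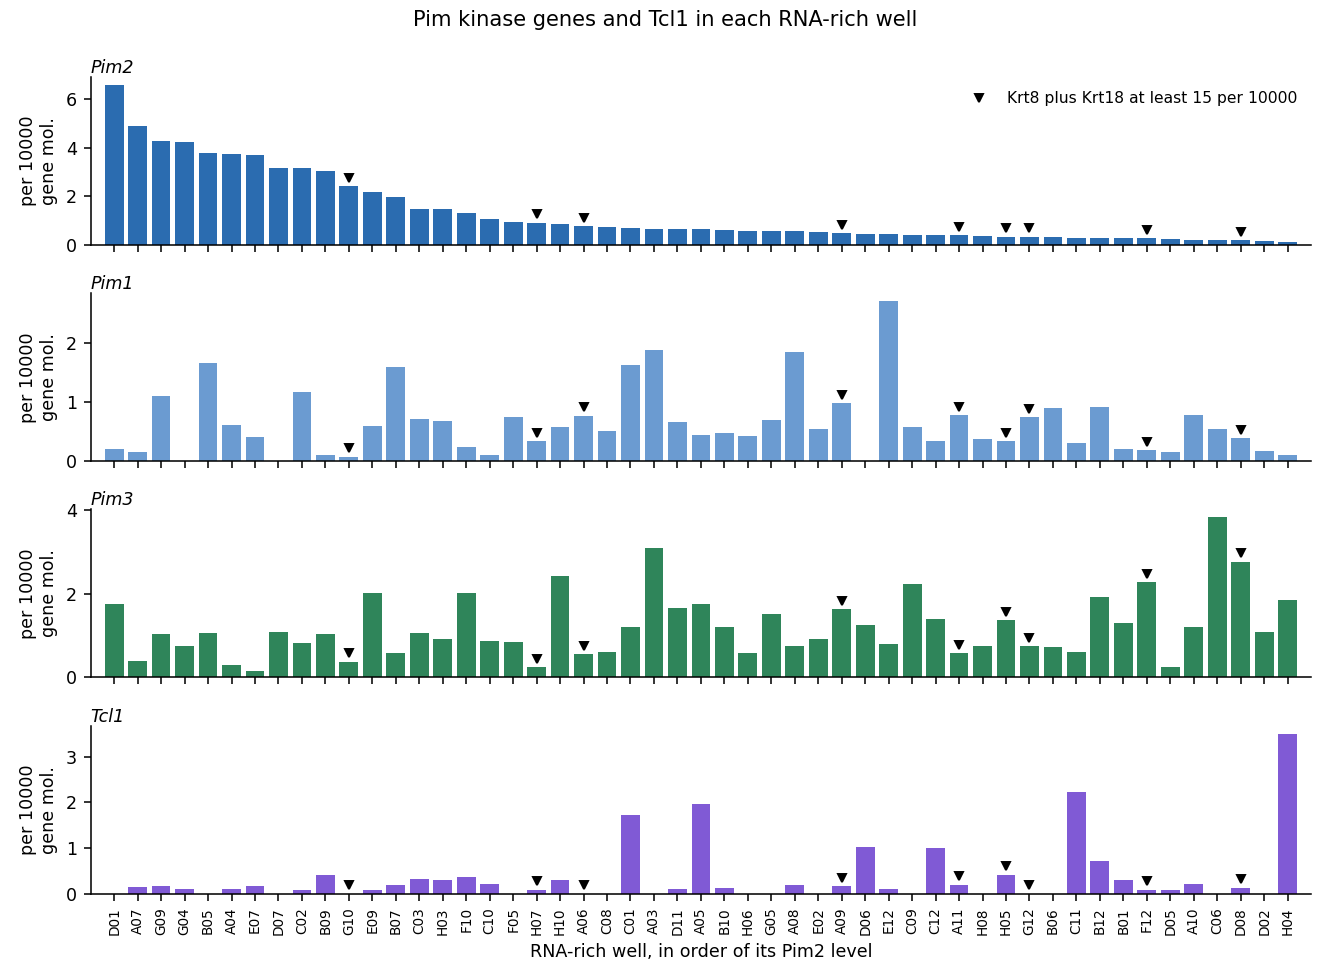
Levels of Pim2, Pim1, Pim3 and Tcl1 (bars, molecules per 10000 gene molecules) in each of the 51 RNA-rich wells, in order of their Pim2 level, with black marks over the 9 keratin-high wells. Pim2 runs from 6.58 in D01 to 0.103, the highest Pim3 well (C06, 3.83) and the highest Tcl1 well (H04, 3.50) lie apart from the Pim2 end, and Pim1 is spread along the order.

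Other relations were seen for the signalling genes. Socs3 had a rho of 0.486 with Junb, an immediate early transcription factor gene, and 0.435 without the keratin-high wells. Stat3 had 0.471 with Akt1, and 0.300 as Pearson's r of log2(level + 1). Jak1 had 0.397 with Krt18, which was 0.239 without the keratin-high wells. It had -0.571 with Pou5f1, of whose molecules 42.2% came from unique reads, and this value was not computed without the keratin-high wells. With Dppa5a Jak1 had -0.364, and -0.246 without the keratin-high wells. Jak1 averaged 0.730 ± 0.392 in the 9 keratin-high wells and 0.360 ± 0.375 in the other 42 RNA-rich wells. Socs3 averaged 0.330 ± 0.258 in keratin-high wells and 0.178 ± 0.246 in the others. Tcl1 averaged 0.119 ± 0.131 in keratin-high wells and 0.386 ± 0.722 in the others, and Pim2 0.682 ± 0.695 and 1.49 ± 1.60. The gaps of these 4 genes were each smaller than the larger of their SDs. Pim3, at 1.17 ± 0.896 in keratin-high wells and 1.23 ± 0.746 in the others, and Stat3, at 0.5001 ± 0.366 and 0.441 ± 0.473, differed by less in their means. Their medians lay further apart, at 0.741 in keratin-high wells and 1.06 in the others for Pim3. For Stat3 the medians were 0.728 in keratin-high wells and 0.308 in the others. The part of the keratin-high wells in these values was not tested beyond leaving them out.

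A wider list of 75 pathway genes, written with earlier results of these data known, surrounded the 9 members. It comprised ligands and receptors, kinases and other STATs, inhibitors, reported Stat3 targets, the Akt arm around Tcl1, and Pim substrates. Of these 68 had a molecule in some well and 40 had enough for the comparison of levels: 5 were at least 1.5 times higher in low-RNA wells and 10 at least 1.5 times lower, with a median ratio of 0.913 beside 0.752 over all genes. These are 12.5% higher and 25% lower, beside 8.87% and 38.5% of all genes. Those higher were Pik3ca (ratio 2.65), a catalytic subunit of phosphoinositide 3-kinase, Cdkn1b (2.03), the cell cycle inhibitor p27, Tfcp2l1 (1.65), Pias1 (1.59), an inhibitor of STATs, and Klf4 (1.51, with 38.7% unique molecules). Among those lower were Akt1 (0.462), Akt2 (0.325) and Gsk3a (0.370) of the Akt arm, the Pim substrates Cdkn1a (0.4998) and Cdc25c (0.631), the phosphatase gene Ptpn2 (0.643) and Zfp36 (0.484), an mRNA decay factor. Several of these calls were lost when 1 well was left out of the range where that moves the ratio towards 1. Without its highest RNA-rich well, E02, Cdkn1a had a ratio of 0.765, and without theirs Cdc25c had 0.730 and Ptpn2 0.683, none of which is 1.5 times lower. Without its highest low-RNA well, Tfcp2l1 had 1.48, Pias1 1.36 and Klf4 1.28. With the highest well left out of both ranges, Cdc25c (0.565) and Ptpn2 (0.643) were again lower and Tfcp2l1 (1.68) again higher. Cdkn1a (0.709), Pias1 (1.46) and Klf4 (1.36) then stayed within 1.5 times.

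In low-RNA wells 0 of 17 tested genes of the wider list were above technical noise, where 0.594% of all genes were. Among RNA-rich wells there were 7 of 38 tested genes, beside 7.0% of all genes. The share of all genes depended on the mean, and was 14.5% among those with a mean of at least 5 molecules. The counts below were not set against genes of like mean. The reported Stat3 targets gave 4 of 14: Junb (ratio 5.05, or 2.87 without its highest well), Fos (3.26 and 2.77), the cyclin gene Ccnd1 (4.02 and 3.34) and Jarid2 (2.44 and 2.14), a partner of Polycomb. The Akt arm gave Akt1 (5.30 and 2.30), whose highest well was D02, the well highest in feeder fibroblast markers. The Pim substrates gave Cdkn1a (30.4 and 3.47), the cell cycle inhibitor p21, and Eif4ebp1 (2.71 and 2.32), a repressor of translation with 36.2% unique molecules. Of kinases, adaptors and other STATs 0 of 5 passed, and of inhibitors 0 of 6, numbers too small to be told from the share of all genes. The value for Cdkn1a rested largely on well E02.

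The ligand gene Lif itself had 4 molecules in low-RNA wells and 44 in RNA-rich wells, found in 15 RNA-rich wells, while Il6 and Ctf1 were at 0. Of the other Janus kinases Jak2 had 4 molecules in low-RNA wells and 29 in RNA-rich wells, Tyk2 3 and 21, and Jak3 0 and 13. The wider list's most abundant genes by count in RNA-rich wells were Cbx3, a heterochromatin protein, with a mean level of 3.07 in low-RNA wells and 4.53 in RNA-rich wells, and Eif4ebp1 with 2.92 and 4.28. Mcl1, a survival factor, had 1.83 in low-RNA wells and 2.10 in RNA-rich wells. Ccnd1 had 1.55 and 1.97, Eif4b, a translation factor and Pim substrate, 1.67 and 1.77, Fos 1.41 and 1.57, and Jarid2 1.66 and 1.44. Cdkn1a had 0.676 in low-RNA wells and 1.35 in RNA-rich wells, the phosphatase gene Cdc25a 0.852 and 0.922, and Sall4, a zinc finger factor of ES cells, 0.986 and 0.893.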

How the data were processed

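The values were molecule counts per feature and well, as deposited by the authors. Alignment was with Bowtie to mm10 (GRCm38), as listed without a version in the submitters' processing notes. A read matching several places was counted at the most 5' exonic one, per the file headers. Libraries were amplified by 21 PCR cycles and sequenced again after 9 further cycles, per the labels; each column belongs to both forms. Columns of no sample numbered 0.

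Levels, ratios of means and rank correlations over wells were computed from these counts. Squared CV was fitted as a/mean + b over spike-ins whose mean reached 0.1 (gamma model, identity link; a = 3.13 and b = 0.0100 in low-RNA wells, 3.23 and 0.00874 in RNA-rich wells). Scripts were tested on simulated data. All wells were kept, and no doublet caller was run. Members and lists were chosen with earlier results of these data known. Genes named were the members, the 10 highest means and all calls of the wider list, and the 3 genes most like each Pim kinase; others named for the wider list's ratios, for relations with ES cell genes, and Socs2 were chosen after their values were seen. Alternatives changed the denominator, normalization, wells, thresholds and depth. Coordinates are of GENCODE M21. The fits used statsmodels 0.14.6, and the rest scipy 1.17.1, numpy 2.4.6, pandas 2.3.3 and matplotlib 3.10.9 under Python 3.11.15.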

Additional observations from a re-analysis of the deposited data

How the results depend on the processing

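The denominator moved the comparison of low-RNA with RNA-rich wells most. Without mitochondrially encoded genes the ratio of summed levels was 0.958, beside a median of 0.946 over all genes. There 1 member (Lifr, 1.62) was at least 1.5 times higher in low-RNA wells, and 2 in place of 3 were lower (Stat3 had 0.706). Jak1 turned to 1.05 and Pim1 to 1.11, and 6 genes of the wider list were lower. Per spike-in molecule the summed ratio was 0.242, beside a median of 0.245 over all genes. With that denominator 8 members were lower, Il6st turned to 0.886 and Lifr to 0.468. In the wider list the median ratio was 0.287, with 0 genes higher and 39 lower. The share of all genes past the limit was not counted with these denominators. These counts are therefore not results about the members or the list. The number of members higher in low-RNA wells was 1 without keratin-high wells and 1 with no minimum on the mean. Without the highest well of each gene in each range, chosen after seeing the data, 3 genes of the wider list were higher. The number of members above technical noise was 0 in low-RNA wells under all alternatives tried. In RNA-rich wells it was 2 under every alternative except a mean of at least 5 molecules, where it was 1. Over all genes the number in RNA-rich wells was 544, against 947 with spike-in totals, 1450 with no normalization, 1490 at a ratio of 1.5 and 189 at 3. Per spike-in molecule the rho was 0.146 between Pim1 and Pim3 and -0.165 between Pim2 and Pim3. The median share of wells with a molecule, 22.1% in low-RNA wells and 31.3% in RNA-rich wells at 10000 molecules, was 3.46% and 8.62% when at least 2 molecules were asked, and 11.5% and 18.1% at 5000. The cause of these shifts was not tested. No paired analysis was possible because each column holds both library forms and no groups of samples were compared. Depth limits Lifr, Il6st, Socs3 and Tcl1 in low-RNA wells, each with at most 18 molecules there.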

Other observations

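Genes whose levels over the 51 RNA-rich wells were most like those of each Pim kinase were different for each. The ranking took 2857 genes with a mean of at least 5 molecules and at least 50% of molecules from unique reads. For Pim2 the highest rank correlations were with Snrnp70 (rho 0.571), a component of the U1 spliceosomal particle, Rbpms2 (0.527), an RNA-binding protein, and Dut (0.493), the dUTPase of nucleotide metabolism. For Pim1 they were with Dazap2 (0.449), Ahctf1 (0.442), a nuclear pore protein, and Plk4 (0.418), the kinase of centriole duplication. For Pim3 they were with Gpn3 (0.431), Cenpt (0.428), a kinetochore protein, and the histone gene Hist1h3c (0.423). These are the top of many ranked values and carry no statement on shared control.

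Socs2, an inhibitor of cytokine signalling related to Socs3, had a mean level of 0.783 in low-RNA wells and 0.774 in RNA-rich wells. Its squared coefficient of variation in RNA-rich wells was 2.82 times the spike-in fit, and 1.98 times without its highest well, just outside the limit of 2. Mcl1 behaved alike, with 4.58 and 1.94.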
